A study of Mus musculus with 9 samples.

Results

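The cell division cycle was followed through 55 genes of mouse T helper cells, of 22017 gene symbols in the deposited expression table. They were chosen by symbol for their textbook role in the cycle, with earlier results of these data known. All 55 symbols were found. They comprise 17 genes of replication licensing and DNA synthesis, 3 E2F transcription factors, 8 G1 cyclins and cyclin-dependent kinases, 4 mitotic cyclins and their kinase (Ccna2, Ccnb1, Ccnb2 and Cdk1), 4 inhibitors of cyclin-dependent kinases, and 19 genes of mitosis and the G2/M transition.

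A cell enters the cycle when D-type cyclins, with CDK4 or CDK6, phosphorylate the retinoblastoma family of pocket proteins and so release E2F factors, which switch on the genes of DNA synthesis. Cyclin E and cyclin A with CDK2 carry the cell through S phase, and cyclin B with CDK1 drives mitosis, whose genes are switched on later by the MuvB complex with B-MYB and FOXM1. The CDK inhibitors oppose these kinases. Activated T cells divide rapidly, and each of these steps is strongly regulated in them.

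RNA sequencing compared 3 groups of cultured T cells, with 3 libraries in each. All came from naive T cells of wild-type C57BL/6 spleens that received anti-CD28 at 1 ug/mL and anti-CD3 at 5 ug/mL over the initial 3 days, and IL-2 (100 U/mL) from day 5. A second activation on day 7 used each antibody at 0.05 ug/mL together with IL-2, and cells were lysed on day 10. The group labelled Th1-1 was kept throughout in the Th1 condition (IL-12 at 10 ng/mL with anti-IL-4). The group Th17-17 was kept in the Th17 condition, which held TGF-beta at 1 ng/mL, IL-6 at 20 ng/mL and IL-1beta at 10 ng/mL with blocking antibodies to IL-4, IL-12 and interferon-gamma. The group Th17-1 began in the Th17 condition and passed to the Th1 condition at the second activation on day 7. The groups therefore ask how cell cycle transcripts differ between the Th1 and Th17 states and where cells that switched from one to the other stand. The age and sex of the mice are not used here, and the labels do not say whether replicates came from separate mice or cultures, so p-values measure the spread between these libraries, which may be technical.

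Values are FPKM, which scales the fragments of a gene by transcript length and library size, so levels of different genes can be compared per length. No read counts were used and the depth is unknown. T cell identity genes such as Cd3e (150 to 236 FPKM) were high in all 9 libraries, and summed markers of macrophages, dendritic cells and mast cells stayed at or below 11.95 FPKM in any library, and B cell markers at or below 4.09. The neutrophil list summed to 9.38 to 34.7 FPKM in Th17-1, 2.27 to 3.14 in Th1-1 and 0.0761 to 0.745 in Th17-17, nearly all of it Ly6g, with S100a8, S100a9 and Elane at 0. The NK list summed to 58.2 to 89.4 FPKM in Th1-1, 34.4 to 64.5 in Th17-1 and 45.01 to 87.98 in Th17-17, mostly Klrk1, while Ncr1 stayed at or near 0. The libraries also differed within groups. Replicate 3 of each group held the most Cd8a, a CD8 T cell marker (104 to 141 FPKM, against 15.3 to 54.9 in the other libraries, beside Cd4 at 52.9 to 124), and the groups overlapped in it. In each replicate 3, Cd8a exceeded Cd4: 117 against 57.1 in Th1-1, 104 against 96.9 in Th17-1 and 141 against 52.9 in Th17-17. In the other libraries Cd4 was the higher. Cd8b1 was 48.1 to 62.9 FPKM in replicate 3 of the groups and 4.53 to 24.1 elsewhere. Replicate 2 of Th1-1 had the highest value of its group in 14 of 17 replication genes and in 7 of 8 G1 cyclins and kinases. Replicate 3 of Th17-1 had the lowest value of its group in all 17 replication and all 19 mitotic genes, while replicate 3 of Th17-17 had the highest of its group in 16 and 17 of them. The part of these differences between libraries in the results below was not tested.

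Of the 55 genes, 54 were expressed highly enough to test (at least 1 FPKM in at least 3 libraries). Only Ccnd1 was not. Differences were tested with limma on log2(FPKM + 1) over 10538 genes, with Benjamini-Hochberg adjustment over all of them, and a gene is called where its adjusted p is below 0.05. In Th1-1 against Th17-17, 5 of the 54 were higher and 16 lower, where 14.0% of all genes tested were called higher and 28.9% lower. The share of lower genes (29.6%) was close to that of all genes, and the median difference was -0.25 on the log2 scale, beside -0.17 for all genes. For Th17-1 against Th17-17 the counts were 3 higher and 3 lower, with 6.43% and 9.49% of all genes called, and medians of -0.20 and -0.12. In Th17-1 against Th1-1, 1 was higher and 2 lower, with 5.67% and 4.81% of all genes called, and both medians were 0.05. In each comparison and direction the share of cycle genes called was thus near or below that of all genes. Th17-17 is shared by the first pair of comparisons and Th1-1 by the first and last, so their values are not independent. In these bulk samples, fewer cycling cells and less RNA per cycling cell cannot be told apart.

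**Figure D1:**
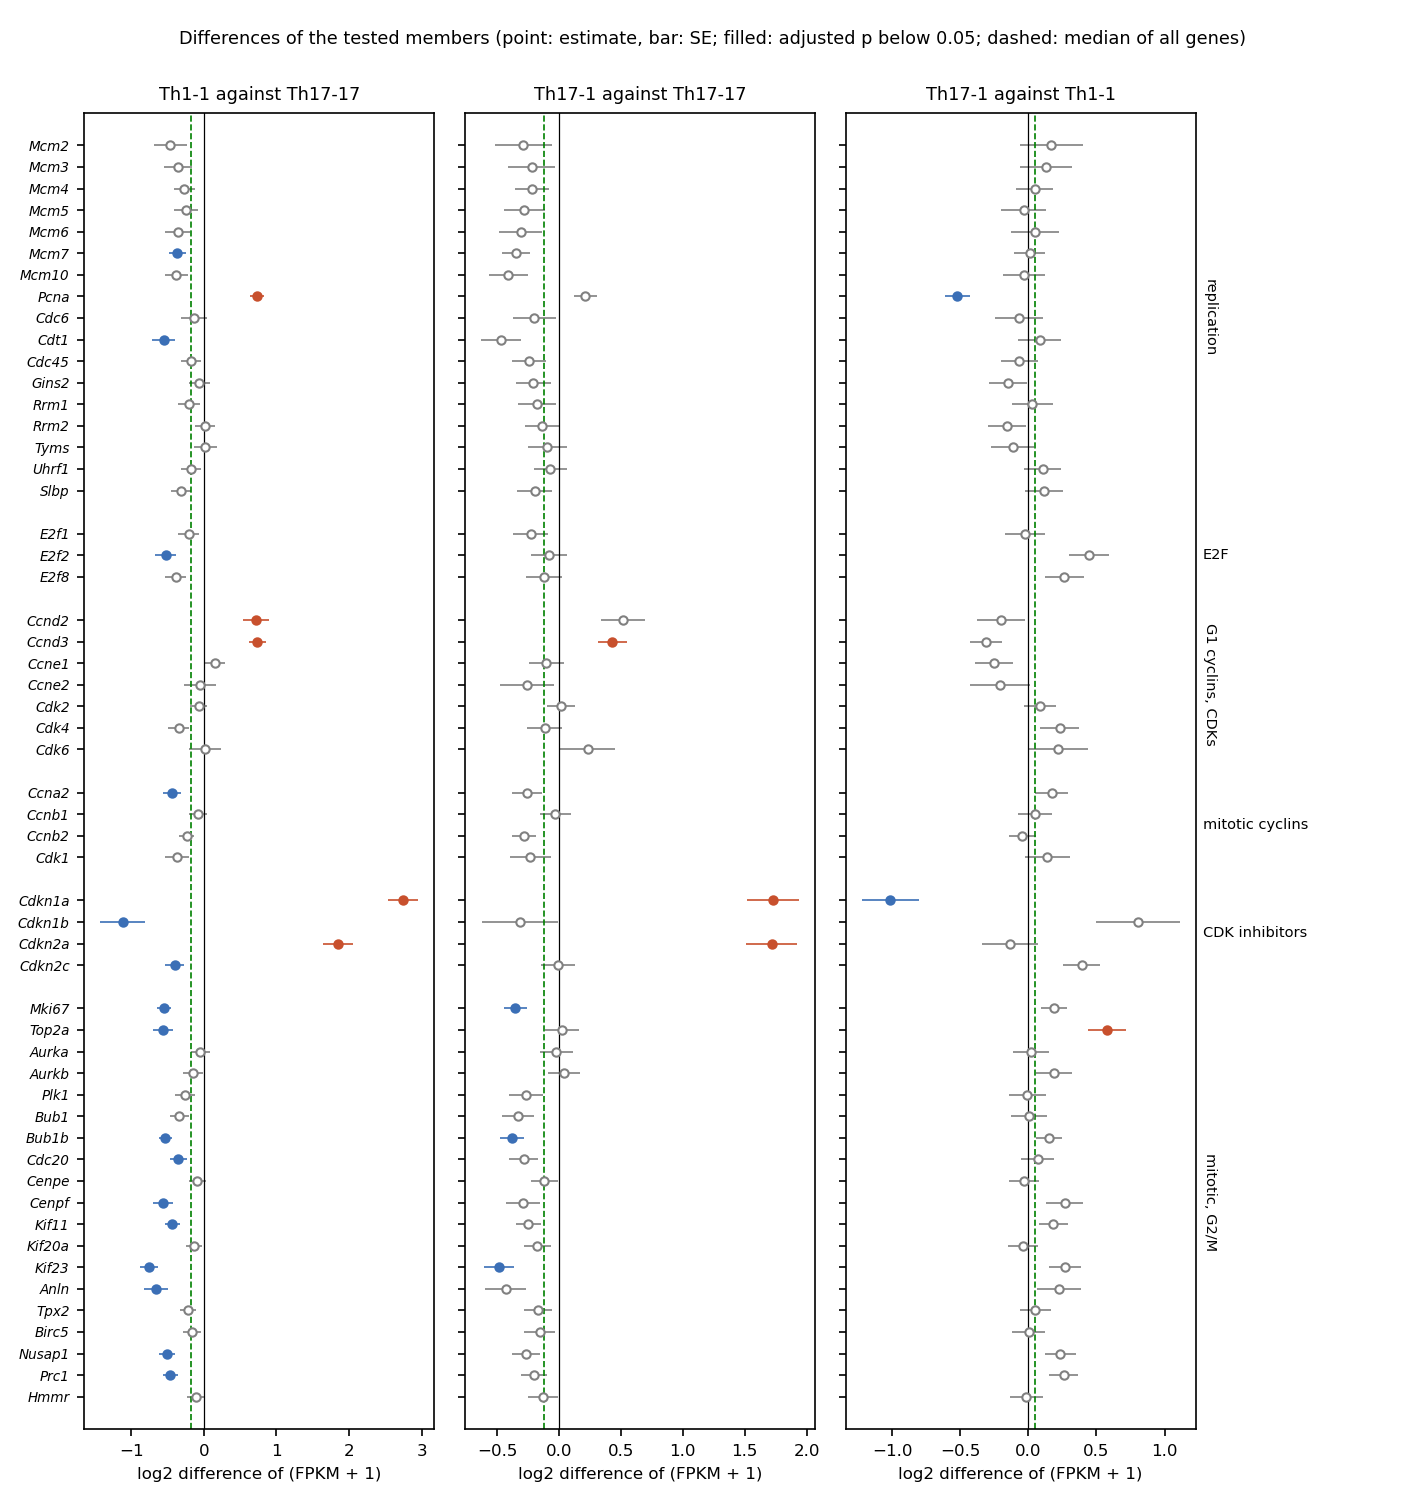
Log2 difference of (FPKM + 1) of the 54 tested cycle genes in the 3 comparisons (panels, whose horizontal scales differ), grouped by role from top to bottom. Points are limma estimates and bars their SE, filled red where called higher, filled blue where called lower and open grey where not called, and the dashed line is the median of all 10538 genes. Cdkn1a and Cdkn2a lie far to the right in both comparisons with Th17-17, and 10 of the 19 mitotic genes are blue in Th1-1 against Th17-17.

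The largest differences were in the CDK inhibitors. Cdkn1a, which encodes p21, an inhibitor of cyclin-CDK2 and a direct target of p53, was highest in Th1-1, lower in Th17-1 and lowest in Th17-17. Cdkn1a stood at 215, 342 and 253 FPKM in Th1-1, at 125, 124 and 144 in Th17-1 and at 32.5, 33.9 and 52.7 in Th17-17. The 3 groups did not overlap. The means were 270.2 ± 65.1, 131 ± 11.6 and 39.7 ± 11.3 FPKM (SD, n = 3). Th1-1 was 6.70-fold above Th17-17 on the FPKM + 1 scale (log2 difference 2.74 ± 0.21 (SE), adjusted p = 4.46e-05 by limma). Th17-1 was 3.31-fold above Th17-17 (1.73 ± 0.21 (SE), adjusted p = 0.00104). Against Th1-1, Th17-1 was lower by 2.02-fold (-1.01 ± 0.21 (SE), adjusted p = 0.0183), a call that was lost without Th1-1 replicate 3, Th17-1 replicate 1 or Th17-1 replicate 2 (adjusted p up to 0.0794).

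Cdkn2a encodes a pair of unrelated proteins from separate starts, the CDK4 and CDK6 inhibitor INK4a and the MDM2 inhibitor ARF, which the deposited table does not separate. Cdkn2a stood at 69.1, 99.4 and 91.8 FPKM in Th1-1, at 70.1, 73.3 and 92.5 in Th17-1 and at 18.9, 20.7 and 31.2 in Th17-17. Every library of Th1-1 and Th17-1 lay above every library of Th17-17, and the former pair overlapped. The gene was 3.61-fold higher in Th1-1 (1.85 ± 0.20 (SE), adjusted p = 0.000295) and 3.29-fold higher in Th17-1 than in Th17-17 (1.72 ± 0.20 (SE), adjusted p = 0.000987). Between Th17-1 and Th1-1 it did not pass the test (-0.13 ± 0.20 (SE), adjusted p = 0.719). Cdkn1a and Cdkn2a thus differ in the position of the switched cells: Th17-1 stood between the other groups for Cdkn1a and within the range of Th1-1 for Cdkn2a, a description whose difference between the genes was not tested.

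Cdkn1b, which encodes p27, an inhibitor typical of resting lymphocytes, went the other way. Cdkn1b stood at 33.5, 13.3 and 27.5 FPKM in Th1-1, at 36.98, 37.8 and 49.8 in Th17-1 and at 59.5, 58.6 and 38.8 in Th17-17. All Th1-1 libraries were below all Th17-17 libraries, with replicate 2 of Th1-1 lowest by far. The difference was -1.12 ± 0.31 (SE), adjusted p = 0.0177 by limma, and it was lost without Th17-17 replicate 1 or replicate 2 (highest adjusted p 0.0669). Th17-1 did not pass against Th17-17 (-0.31, adjusted p = 0.504) or Th1-1 (0.80, adjusted p = 0.135), although it did not overlap with Th1-1. Cdkn2c, which encodes the CDK4 and CDK6 inhibitor p18, was also lower in Th1-1. Cdkn2c stood at 44.7, 40.9 and 33.9 FPKM in Th1-1, at 58.4, 56.7 and 43.1 in Th17-1 and at 51.3, 53.6 and 53 in Th17-17. Its call (log2 difference -0.40 ± 0.14 (SE), adjusted p = 0.0405) was lost under median-ratio scaling and without Th1-1 replicate 3, Th17-1 replicate 2 or any library of Th17-17 (adjusted p up to 0.145 without 1 library). The other comparisons of Cdkn2c gave -0.01, adjusted p = 0.967 (Th17-1 against Th17-17) and 0.39, adjusted p = 0.103 (against Th1-1).

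The RefSeq promoter windows of both inhibitors that were higher in Th1-1 show what stands at their starts (250 bases before to 50 after the start, GRCm38.p6, gene strand, 5′ to 3′). Cdkn1a is a protein-coding gene on the plus strand at chr17:29090976-29100727, and the window of the downstream of its 2 RefSeq starts is chr17:29093519-29093818. Cdkn2a lies on the minus strand at chr4:89274471-89294653. Both of its starts are shown, since the values cannot be split between them: the upstream window, chr4:89294570-89294869, begins the ARF transcript, and the downstream window, chr4:89282143-89282442, the INK4a transcript. Capitals mark matches on either strand to TTTGAA (the cell cycle homology region or CHR, contacted by MuvB), CCAAT (the NF-Y box), the E2F-type words TTTGGCGC, TTTGCCGC, TTTCGCGC and TTTCCCGC, and GGGCGG (the GC box of Sp1-like factors).
Cdkn1a: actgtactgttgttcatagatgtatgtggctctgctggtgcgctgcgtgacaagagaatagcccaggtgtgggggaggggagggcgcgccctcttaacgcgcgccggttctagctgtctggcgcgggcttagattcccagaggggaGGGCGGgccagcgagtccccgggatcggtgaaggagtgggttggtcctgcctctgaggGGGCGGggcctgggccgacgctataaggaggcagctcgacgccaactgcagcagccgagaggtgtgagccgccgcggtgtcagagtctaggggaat
Cdkn2a, ARF start: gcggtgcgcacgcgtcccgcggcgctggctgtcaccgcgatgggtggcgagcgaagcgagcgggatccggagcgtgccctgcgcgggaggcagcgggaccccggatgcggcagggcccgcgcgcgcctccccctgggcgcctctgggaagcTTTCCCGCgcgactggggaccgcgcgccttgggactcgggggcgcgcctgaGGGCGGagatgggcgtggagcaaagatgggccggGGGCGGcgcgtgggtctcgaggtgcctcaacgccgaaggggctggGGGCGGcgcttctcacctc
Cdkn2a, INK4a start: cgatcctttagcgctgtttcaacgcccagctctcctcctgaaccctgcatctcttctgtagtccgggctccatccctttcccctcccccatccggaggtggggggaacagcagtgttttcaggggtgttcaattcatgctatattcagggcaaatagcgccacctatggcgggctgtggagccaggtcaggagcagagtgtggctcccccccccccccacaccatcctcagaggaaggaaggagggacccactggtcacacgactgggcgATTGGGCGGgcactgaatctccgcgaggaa
The Cdkn1a window held 2 GC boxes, 104 and 46 bases before the start. The ARF window held an E2F-type word 99 bases before the start and 3 GC boxes. In the INK4a window a CCAAT box and a GC box overlapped by 2 bases, 21 and 24 bases after the start. None of the 7 windows of the 4 inhibitors held TTTGAA. Of all 32851 RefSeq windows of this length, 35.7% held a GC box, 37.4% a CCAAT box, 17.9% TTTGAA and 2.26% an E2F-type word. A match is a word in the sequence and not a measured binding site.

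**Figure D2:**
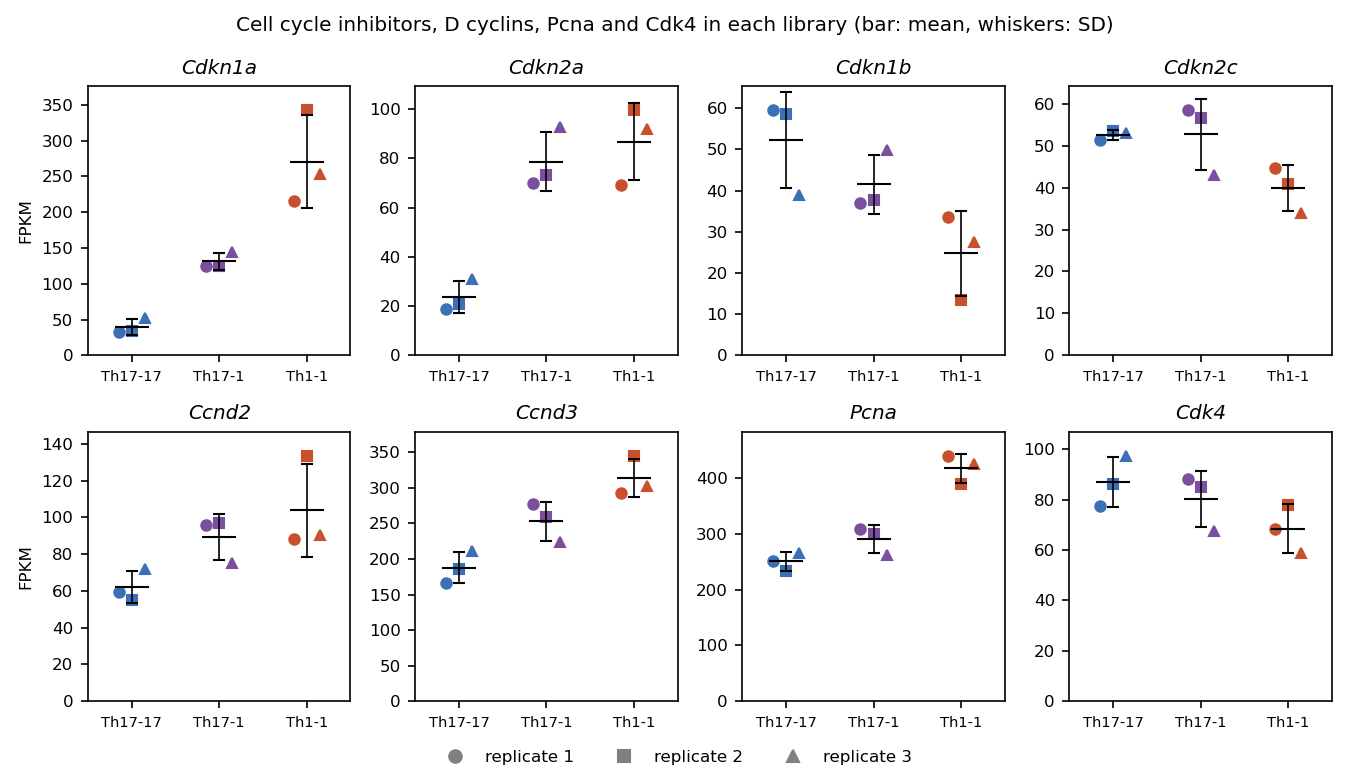
FPKM of 4 CDK inhibitors, 2 D cyclins, Pcna and Cdk4 in each library of Th17-17 (blue), Th17-1 (purple) and Th1-1 (red), with marker shapes for the replicate numbers, a bar at the group mean and whiskers of 1 SD, n = 3. Axes start at 0 and differ between panels. Cdkn1a climbs from 32.5 to 342 FPKM without overlap of the groups, Cdkn2a is high in both Th1-1 and Th17-1, and Cdkn1b and Cdkn2c have their lowest values in Th1-1.

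Among G1 cyclins and kinases, 2 of 7 tested genes were higher in Th1-1 than in Th17-17 and none of the 7 was lower by limma (1 was lower at an unadjusted p below 0.05), where 14.0% of all genes were higher and 28.9% lower. Both were D cyclins. Ccnd3, the most abundant G1 cyclin in these cells at a mean of 252 FPKM over all libraries, passed in both comparisons with Th17-17. Ccnd3 stood at 294, 344 and 303 FPKM in Th1-1, at 278, 259 and 224 in Th17-1 and at 167, 186 and 211 in Th17-17. No group overlapped another. The log2 difference was 0.74 ± 0.12 (SE), adjusted p = 0.00154 for Th1-1 and 0.43 ± 0.12 (SE), adjusted p = 0.0382 for Th17-1 against Th17-17 by limma. The latter call was lost in 10 of 23 settings, among them the omission of Th1-1 replicate 3, of replicate 1 or 2 of Th17-1, or of replicate 1 or 2 of Th17-17 (adjusted p up to 0.146). Th17-1 against Th1-1 gave -0.31, adjusted p = 0.133.

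Ccnd2 stood at 88.3, 133 and 90.5 FPKM in Th1-1, at 96.1, 96.8 and 75.1 in Th17-1 and at 59.3, 55.1 and 71.8 in Th17-17. Both IL-12-treated groups lay above Th17-17 without overlap, and the D cyclin passed only in Th1-1 against Th17-17 (0.72 ± 0.18 (SE), adjusted p = 0.0116 by limma). The other pairs gave 0.52, adjusted p = 0.0801 for Th17-1 against Th17-17 and -0.20, adjusted p = 0.514 against Th1-1. Ccnd1, the D cyclin of many non-lymphoid cells, stayed between 0.0328 and 0.388 FPKM in the 9 libraries and was too low to test. The partner kinases Cdk4 (means 68.4, 80.3 and 86.9 FPKM in Th1-1, Th17-1 and Th17-17) and Cdk6 (42.8, 48.9 and 41.4) did not pass in any comparison. Nor did Cdk2, Ccne1 or Ccne2, whose cyclin E products partner CDK2. So the D cyclins expressed in these cells were higher in Th1-1 together with Cdkn1a and Cdkn2a, while the inhibitor genes Cdkn1b and Cdkn2c were lower. Of the Cdkn2a products, INK4a inhibits the partner kinases CDK4 and CDK6 and ARF does not, and the values do not separate them.

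Few replication genes passed the test. In Th1-1 against Th17-17, 1 of 17 was higher and 2 were lower (5.88% and 11.8%, where 14.0% and 28.9% of all genes were). Between Th17-1 and Th17-17 limma called 0 of 17, while 1 was higher and 3 lower at an unadjusted p below 0.05. Of all genes, limma called 6.43% higher and 9.49% lower there. In Th17-1 against Th1-1, 1 was lower (5.88%, where 4.81% of all genes were). The class median was -0.24 on the log2 scale in Th1-1 against Th17-17, beside -0.17 for all genes. The 2 lower became 7 with Th1-1 replicate 2 left out, 1 without replicate 1 of Th1-1 or of Th17-17, 0 without Th1-1 replicate 3 or Th17-17 replicate 2 or 3, and 0 under median-ratio scaling. Of all genes, 35.7% were lower without Th1-1 replicate 2 and 16.7% under median-ratio scaling. With the other omissions named, 18.6% to 24.7% of all genes were. With array weights, 11 of 17 replication genes were lower, where 46.3% of all genes were. In Th17-1 against Th1-1, array weights gave 7 of 17 higher, where 32.4% of all genes were.

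Pcna, the sliding clamp of DNA polymerase, was the replication gene higher in Th1-1. Pcna stood at 439, 389.5 and 425 FPKM in Th1-1, at 309.8, 300.1 and 263 in Th17-1 and at 252, 233 and 266 in Th17-17. All Th1-1 libraries were above all others, and Th17-1 overlapped with Th17-17. The log2 difference was 0.73 ± 0.09 (SE), adjusted p = 0.000502 in Th1-1 against Th17-17 by limma and held in all 23 alternative settings. Th17-1 was lower than Th1-1 (-0.52 ± 0.09 (SE), adjusted p = 0.0102) and did not pass against Th17-17 (0.21, adjusted p = 0.144). The call of Th17-1 against Th1-1 was lost without replicate 3 of every group (adjusted p = 0.0605 by limma) and at a threshold of 0.01. Pcna is also a known p53 target, and the p53 list below does not hold it.

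Cdt1, which loads the MCM helicase at origins, was lower in Th1-1. Cdt1 stood at 32.6, 29.9 and 24.4 FPKM in Th1-1, at 33.2, 33.7 and 25.5 in Th17-1 and at 36.2, 43.04 and 49.98 in Th17-17. All Th17-17 libraries lay above those of the other groups, and the call in Th1-1 (-0.55 ± 0.16 (SE), adjusted p = 0.0214 by limma) was lost under median-ratio scaling and without Th1-1 replicate 3 or Th17-17 replicate 2 or 3 (adjusted p up to 0.0813 without 1 library). Mcm7 stood at 70.3, 70.2 and 62.4 FPKM in Th1-1, at 75.2, 72.02 and 58.1 in Th17-1 and at 83.1, 83.7 and 94.6 in Th17-17. This helicase subunit also had its highest values in Th17-17 and passed in Th1-1 (-0.36 ± 0.11 (SE), adjusted p = 0.0300), a call lost under median-ratio scaling and without Th1-1 replicate 1 or 3 or any library of Th17-17 (up to 0.108 without 1 library). The other 5 subunits of the MCM2-7 ring had log2 differences of -0.46 (Mcm2) to -0.24 (Mcm5) in this comparison and did not pass. For Mcm6, which stands for the class in the sequences below, the levels stood at 79.5, 91.9 and 67.7 FPKM in Th1-1, at 92.6, 93.9 and 62.96 in Th17-1 and at 95.2, 95.3 and 115 in Th17-17. Th17-17 lay above both other groups without overlap, yet the adjusted p was 0.124 and 0.246.

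Rrm2, the regulated subunit of ribonucleotide reductase and the second most abundant of the class, had means of 203 ± 31.1, 182 ± 26.1 and 199 ± 13.6 FPKM (SD, n = 3) in Th1-1, Th17-1 and Th17-17. Rrm1, its partner, had 98.4 ± 12.6, 101 ± 18.1 and 113 ± 12.2. In both genes the groups overlapped. Cdc6, which loads the MCM helicase with Cdt1, Mcm10, Cdc45 and Gins2, which act in origin firing, and Tyms, Uhrf1 and Slbp, which serve thymidylate synthesis, maintenance methylation and histone mRNA, did not pass in any comparison. Of the E2F factors, the activator E2f2 was lower in Th1-1. E2f2 stood at 37.7, 26.6 and 28.9 FPKM in Th1-1, at 44.6, 44.6 and 38.1 in Th17-1 and at 46.8, 49.5 and 38.6 in Th17-17. Th1-1 did not overlap with either other group, and limma gave -0.53 ± 0.15 (SE), adjusted p = 0.0186 against Th17-17, which was lost under median-ratio scaling and without Th1-1 replicate 3 or Th17-17 replicate 1 or 2 (adjusted p up to 0.0726 without 1 library). E2f1, another activator, and E2f8, an atypical repressor, did not pass in any comparison, with differences of -0.20 and -0.39 in Th1-1 against Th17-17.

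Many mitotic genes were lower in Th1-1 than in Th17-17. Of 19, 10 were lower (52.6%, where 28.9% of all genes were) and 0 higher by limma (also 0 at an unadjusted p below 0.05), with a median of -0.35 beside -0.17 for all genes. The differences were small, from -0.75 (Kif23) to -0.04 (Aurka). Under median-ratio scaling, which moves the median of all genes to -0.02, 6 were lower, beside 16.7% of all genes. Without replicate 3 of every group, whose libraries held the most Cd8a, 5 were lower beside 18.7% of all genes. In Th17-1 against Th17-17, 3 of 19 were lower, where 9.49% of all genes were, and 0 without any single library of Th17-1 or Th17-17. In Th17-1 against Th1-1, 1 was higher, where 5.67% of all genes were.

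Kif23, a kinesin of the central spindle needed for cytokinesis, had the largest difference. Kif23 stood at 31.01, 22.6 and 23.1 FPKM in Th1-1, at 31.4, 31.7 and 29.1 in Th17-1 and at 44.1, 41.9 and 44.2 in Th17-17. Th17-17 was above both other groups in every library. The difference was -0.75 ± 0.12 (SE), adjusted p = 0.00153 for Th1-1 and -0.48 ± 0.12 (SE), adjusted p = 0.0270 for Th17-1 by limma. Mki67, which encodes the proliferation antigen Ki-67, followed the same order of levels. Mki67 stood at 96.2, 93.8 and 89.5 FPKM in Th1-1, at 113, 114 and 93.6 in Th17-1 and at 136, 129 and 144 in Th17-17. It was lower in Th1-1 (-0.54 ± 0.10 (SE), adjusted p = 0.00249) and in Th17-1 (-0.35 ± 0.10 (SE), adjusted p = 0.0375) than in Th17-17. Bub1b, which encodes the spindle checkpoint kinase BUBR1, was the third to pass in both. Bub1b stood at 33.7, 30.8 and 30.4 FPKM in Th1-1, at 36.7, 36.4 and 32.4 in Th17-1 and at 43.1, 44.6 and 50.5 in Th17-17. The values were -0.53 ± 0.09 (SE), adjusted p = 0.00267 in Th1-1 and -0.38 ± 0.09 (SE), adjusted p = 0.0280 in Th17-1 against Th17-17. For these 3 genes the calls in Th1-1 held in all 23 settings, while those in Th17-1 were lost under median-ratio scaling, without replicate 3 of every group and without any single library of Th17-1 or Th17-17, and for Mki67 also without Th1-1 replicate 1 or 3 (adjusted p without 1 library up to 0.0991 for Kif23, 0.117 for Mki67 and 0.0847 for Bub1b). None of the 3 passed in Th17-1 against Th1-1.

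Top2a, the DNA topoisomerase that decatenates sister chromatids, was the mitotic gene that passed in Th17-1 against Th1-1. Top2a stood at 230.3, 232 and 191 FPKM in Th1-1, at 373, 348 and 263 in Th17-1 and at 326, 298 and 336 in Th17-17. Th1-1 lay below both other groups without overlap, and Th17-1 overlapped with Th17-17. It was lower in Th1-1 than in Th17-17 (-0.56 ± 0.14 (SE), adjusted p = 0.0114 by limma) and higher in Th17-1 than in Th1-1 (0.58 ± 0.14 (SE), adjusted p = 0.0314), the latter lost in 8 of 23 settings, among them the omission of either of Th1-1 replicates 1 and 3, Th17-1 replicates 1 and 2, or Th17-17 replicate 1 (adjusted p up to 0.129). Against Th17-17, Th17-1 gave 0.02, adjusted p = 0.927.

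The other 6 mitotic genes lower in Th1-1 passed against Th17-17 only, which does not show that the comparisons differ. Anln encodes anillin, a scaffold of the contractile ring. Anln stood at 11.03, 12.6 and 10.1 FPKM in Th1-1, at 15.8, 14.6 and 10.01 in Th17-1 and at 17.9, 16.7 and 20.2 in Th17-17. Its difference was -0.66 ± 0.16 (SE), adjusted p = 0.0119 by limma. Cenpf, a kinetochore protein of G2 and mitosis, came next. Cenpf stood at 20.5, 13.6 and 16.1 FPKM in Th1-1, at 19.7, 21.6 and 19.1 in Th17-1 and at 26.6, 23.5 and 24.3 in Th17-17. Its difference was -0.56 ± 0.14 (SE), adjusted p = 0.0112. Nusap1 and Prc1 bundle spindle microtubules. Nusap1 stood at 49.5, 37.9 and 41.9 FPKM in Th1-1, at 54.1, 50.9 and 47.1 in Th17-1 and at 64.7, 56.6 and 62.2 in Th17-17. Prc1 stood at 68.5, 57.6 and 58.1 FPKM in Th1-1, at 79.2, 73.4 and 68.2 in Th17-1 and at 83.6, 77.5 and 93.1 in Th17-17. Their differences were -0.50 ± 0.11 (SE), adjusted p = 0.00730 and -0.46 ± 0.11 (SE), adjusted p = 0.00849. In these 4 genes each Th1-1 library was below each Th17-17 library. The calls of Cenpf and Prc1 were lost under median-ratio scaling, and those of Cenpf, Nusap1 and Prc1 without replicate 3 of every group.

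Kif11 encodes the motor that separates spindle poles. Kif11 stood at 59.6, 52.9 and 51.2 FPKM in Th1-1, at 67.2, 62.9 and 56.4 in Th17-1 and at 75.8, 66.9 and 79.1 in Th17-17. The difference was -0.43 ± 0.10 (SE), adjusted p = 0.0102 by limma, lost under median-ratio scaling and without replicate 3 of every group. Cdc20, the activator of the anaphase-promoting complex, had the highest adjusted p of the 10. Cdc20 stood at 67.4, 62.98 and 57.8 FPKM in Th1-1, at 68.1, 64.9 and 63.97 in Th17-1 and at 74.2, 72.1 and 96.2 in Th17-17. Replicate 3 of Th17-17 was the highest, and the call (-0.35 ± 0.12 (SE), adjusted p = 0.0380) was lost in 11 of 23 settings, among them the omission of Th1-1 replicate 3, Th17-1 replicate 1 or 2, or Th17-17 replicate 1 or 3 (adjusted p up to 0.129 without 1 library). The 9 mitotic genes that did not pass against Th17-17 were Birc5, Aurkb, Plk1, Tpx2, Kif20a, Aurka, Hmmr, Bub1 and Cenpe. Birc5, which encodes survivin, had means of 94.2, 94.6 and 105 FPKM in Th1-1, Th17-1 and Th17-17, and the mitotic kinases Aurkb and Plk1 had 58.5, 66.98 and 65.3, and 56.05, 55.9 and 67.6. Of the mitotic cyclins and their kinase, Ccna2 alone passed. Ccna2 stood at 105, 101 and 87.03 FPKM in Th1-1, at 119, 118 and 94.2 in Th17-1 and at 132, 119.6 and 144 in Th17-17. Cyclin A2 mRNA was lower in Th1-1 than in Th17-17 (-0.43 ± 0.12 (SE), adjusted p = 0.0193), which was lost under median-ratio scaling and without Th1-1 replicate 3 or Th17-17 replicate 1 or 3 (adjusted p up to 0.0756 without 1 library). Ccnb1, Ccnb2 and Cdk1 gave -0.08, adjusted p = 0.641, -0.24, adjusted p = 0.0828 and -0.37, adjusted p = 0.0970.

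Promoter windows of the 3 mitotic genes that passed in both comparisons with Th17-17 are given with that of Mcm6 as a replication gene. They were chosen after their values were seen, and capitals mark the same words as above. Kif23 is at chr9:61946750-61947049 on the minus strand, Bub1b at chr2:118597961-118598260 on the plus strand, Mki67 at chr7:135716330-135716629 on the minus strand and Mcm6 at chr1:128359656-128359955 on the minus strand.
Kif23: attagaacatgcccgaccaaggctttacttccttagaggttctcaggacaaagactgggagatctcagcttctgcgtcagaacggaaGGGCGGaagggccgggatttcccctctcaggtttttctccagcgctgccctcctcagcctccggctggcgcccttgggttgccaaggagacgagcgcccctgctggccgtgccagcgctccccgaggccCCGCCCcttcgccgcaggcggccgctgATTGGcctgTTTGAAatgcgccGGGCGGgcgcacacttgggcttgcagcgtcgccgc
Bub1b: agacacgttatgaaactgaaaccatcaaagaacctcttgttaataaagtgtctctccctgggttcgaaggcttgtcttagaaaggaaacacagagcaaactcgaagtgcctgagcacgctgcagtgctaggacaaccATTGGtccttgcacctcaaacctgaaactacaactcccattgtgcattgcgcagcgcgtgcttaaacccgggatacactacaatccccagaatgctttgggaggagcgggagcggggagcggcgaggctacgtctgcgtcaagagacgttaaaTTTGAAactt
Mki67: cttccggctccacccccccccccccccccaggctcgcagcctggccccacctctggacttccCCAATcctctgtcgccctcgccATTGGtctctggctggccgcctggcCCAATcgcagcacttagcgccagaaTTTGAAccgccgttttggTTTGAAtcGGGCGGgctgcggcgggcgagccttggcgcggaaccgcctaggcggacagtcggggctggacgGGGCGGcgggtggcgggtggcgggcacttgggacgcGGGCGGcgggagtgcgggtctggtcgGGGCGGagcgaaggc
Mcm6: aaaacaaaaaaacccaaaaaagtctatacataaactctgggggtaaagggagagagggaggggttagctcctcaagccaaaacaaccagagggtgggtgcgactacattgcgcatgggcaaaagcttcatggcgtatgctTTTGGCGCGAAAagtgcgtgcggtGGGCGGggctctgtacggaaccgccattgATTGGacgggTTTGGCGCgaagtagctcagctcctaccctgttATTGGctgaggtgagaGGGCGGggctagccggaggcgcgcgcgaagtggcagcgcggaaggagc
Kif23 and Bub1b each held 1 TTTGAA, 3 and 41 bases after the start, and Mki67 held 2, 116 and 98 bases before it. Each of the 3 also held CCAAT upstream of its TTTGAA. Mcm6 held no TTTGAA but 3 E2F-type words, of which 2 on opposite strands overlapped by 4 bases. It held CCAAT too, 57 and 14 bases before the start. RefSeq windows were found for 46 of the 55 genes. TTTGAA occurred in 15 of 20 windows of mitotic genes and mitotic cyclins (75.0%) and in 2 of 17 windows of replication genes (11.8%), beside 17.9% of all windows. E2F-type words occurred in 1 of 20 and 7 of 17 (41.2%), beside 2.26% of all. CCAAT occurred in 17 of 20 (85.0%) and 14 of 17 (82.4%), beside 37.4% of all. Among the mitotic genes and cyclins, TTTGAA was in 10 of 11 windows of those lower in Th1-1 than in Th17-17 and in 5 of 9 of those that did not pass. By gene, 10 of the 11 lower genes had a window and 9 of these held TTTGAA. Of the 12 genes that did not pass, 9 had a window and 5 held it. These are counts of words, without a test.

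**Figure D3:**
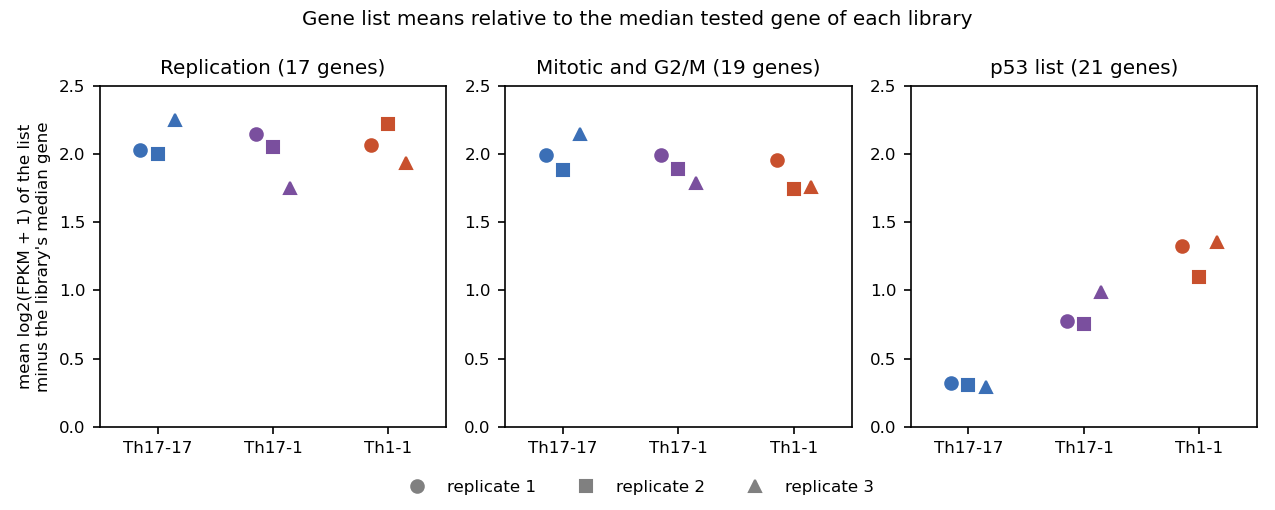
Mean log2(FPKM + 1) of the 17 replication genes, the 19 mitotic genes and the 21 tested genes of the p53 list in each library, minus the median of the genes tested in that library. Replication means of the groups overlap (1.93 to 2.22 in Th1-1, 1.75 to 2.15 in Th17-1 and 2.00 to 2.25 in Th17-17), as do mitotic means (1.74 to 1.96, 1.79 to 1.99 and 1.88 to 2.15), whereas p53 list means do not (1.10 to 1.36, 0.75 to 0.99 and 0.29 to 0.32).

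The class averages depended on the scale. As mean log2(FPKM + 1), the scale of the calls, the 19 mitotic genes ranged from 5.40 to 5.64 in Th1-1, 5.51 to 5.75 in Th17-1 and 5.75 to 6.00 in Th17-17, so that Th1-1 and Th17-17 did not overlap. Mitotic cyclins and Cdk1 ranged from 5.74 to 6.00, 5.77 to 6.10 and 6.06 to 6.33 in the same order. Replication genes ranged from 5.58 to 5.96, 5.48 to 5.91 and 5.87 to 6.11, and there Th1-1 and Th17-17 overlapped. Once the median gene of each library was subtracted, the libraries of all 3 groups overlapped in both the replication and the mitotic mean. Relative to the median gene of each library, the replication mean was 2.07 ± 0.15 in Th1-1, 1.98 ± 0.21 in Th17-1 and 2.10 ± 0.13 in Th17-17, and the mitotic mean 1.82 ± 0.12, 1.89 ± 0.10 and 2.01 ± 0.13 (log2 units, SD, n = 3). These values are a description without a test. The mitotic means stood in the order of Th1-1, Th17-1 and Th17-17, by steps smaller than their SD or close to it.

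Genes of the same pathways outside the 55 were counted in the same way. Of 46 other replication genes, 12 were lower in Th1-1 than in Th17-17 (26.1%, near the 28.9% of all genes) and 0 higher by limma (also 0 at an unadjusted p below 0.05), led by the polymerase subunits Pole2 (-0.79, adjusted p = 0.00239) and Pold1 (-0.71, adjusted p = 0.0154) and the single-strand binding protein Rpa1 (-0.74, adjusted p = 0.0213). Th17-1 had 5 of them lower than Th17-17 (10.9%, near the 9.49% of all genes), led by the ligase Lig1 (-0.45, adjusted p = 0.0378), Pole (-0.43, adjusted p = 0.0449) and the origin subunit Orc3 (-0.41, adjusted p = 0.0419). Only Orc5 was higher in Th17-1 than in Th1-1 (0.51, adjusted p = 0.0498), 2.17% of the 46, where 5.67% of all genes were. Of 56 other mitotic genes, 20 were lower in Th1-1 than in Th17-17 (35.7%, beside 28.9% of all genes), with a median of -0.27. Higher was 1 (1.79%, beside 14.0% of all genes). The largest were the CDK1-activating phosphatase Cdc25b (-1.05, adjusted p = 0.000983), Racgap1 (-0.90, adjusted p = 0.000419), which binds the Kif23 kinesin in the centralspindlin complex, and the kinetochore scaffold Knl1 (-0.56, adjusted p = 0.00413). The median of the other replication genes was -0.26, close to that of the other mitotic genes. Among the 55, the shares lower in the main fit were 52.6% of mitotic and 11.8% of replication genes, further apart than outside the 55. With array weights, 13 of 19 mitotic and 11 of 17 replication genes of the 55 were lower, beside 46.3% of all genes. The contrast between the classes thus depended on the setting, and it was not tested.

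Racgap1 stood at 67.7, 62.7 and 56.9 FPKM in Th1-1, at 91, 90.9 and 72.4 in Th17-1 and at 119, 118 and 115 in Th17-17. Like Kif23, it was highest in every Th17-17 library, and it passed in all 3 comparisons (against Th17-17 in Th17-1, -0.47, adjusted p = 0.0202, and against Th1-1, 0.43, adjusted p = 0.0370). The kinesin Kif22 (-0.37, adjusted p = 0.0310) and the centromere protein Cenpk (-0.36, adjusted p = 0.0461) were also lower in Th17-1 than in Th17-17. With Racgap1 they were 3 of 56 (5.36%), where 9.49% of all genes were lower. Higher in Th17-1 than in Th1-1 were, besides Racgap1, Cdc25b (0.60, adjusted p = 0.0370) and the condensin subunit Smc4 (0.32, adjusted p = 0.0399). With Racgap1 these too were 3 of 56 (5.36%), where 5.67% of all genes were higher. Gtse1, a G2 and S phase protein that binds p53, was the 1 of the 56 higher than in Th17-17, in Th1-1 (0.54, adjusted p = 0.00710) and in Th17-1 (0.45, adjusted p = 0.0352). That is 1.79% in each comparison, where 14.0% and 6.43% of all genes were higher.

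Among 31 tested G1/S regulators and pocket proteins, Th1-1 had 4 above and 6 below Th17-17 by the test (12.9% and 19.4%, where 14.0% and 28.9% of all genes were), so neither share exceeded that of all genes. Higher were Ccng1, a p53 target, Cdkn2b, which encodes the inhibitor INK4b beside Cdkn2a, Rbl2, the pocket protein p130 of resting cells, and Fbxw7, which targets cyclin E for destruction. Cdkn2b stood at 8.20, 17.5 and 16.8 FPKM in Th1-1, at 15.5, 17.2 and 21.97 in Th17-1 and at 4.35, 5.24 and 10.4 in Th17-17. Its difference was 1.00 ± 0.33 (SE), adjusted p = 0.0369 in Th1-1 and 1.40 ± 0.33 (SE), adjusted p = 0.0229 in Th17-1 against Th17-17 by limma. Rbl2 gave 0.81, adjusted p = 0.00873 in Th1-1, and Fbxw7 0.50, adjusted p = 0.00856 in Th1-1 and 0.43, adjusted p = 0.0375 in Th17-1. The largest decreases in Th1-1 were the E2F partner Tfdp2 (-0.92, adjusted p = 0.0200), the checkpoint kinase Chek1 (-0.71, adjusted p = 0.00932) and cyclin H, Ccnh (-0.66, adjusted p = 0.00194). In Th17-1 against Th17-17, 3 were higher (Cdkn2b, Ccng1 and Fbxw7) and 0 lower by limma (3 at an unadjusted p below 0.05). The 3 higher are 9.68%, where 6.43% of all genes were higher and 9.49% lower. Against Th1-1, Ccng1 alone was lower (3.23%, where 4.81% of all genes were).

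Since Cdkn1a is a classical target of the transcription factor p53, a list of Trp53 and other p53 target genes was read beside it. Of its 21 tested genes, 14 were higher in Th1-1 than in Th17-17 (66.7%, where 14.0% of all genes were). Lower was 1 (4.76%, where 28.9% of all genes were), Rrm2b (-0.33, adjusted p = 0.0479 by limma). The Rrm2b call was lost without Th1-1 replicate 1 or 3, any Th17-1 library, or Th17-17 replicate 1 or 2. The 14 stayed at 14 with each of the 3 other scalings. The median was 0.71 beside -0.17 for all genes. In Th17-1 against Th17-17, 10 were higher and 0 lower by limma (1 at an unadjusted p below 0.05), with a median of 0.33. The 10 are 47.6%, where 6.43% of all genes were higher. In Th17-1 against Th1-1, 8 were lower and 0 higher (1 at an unadjusted p below 0.05), with a median of -0.37. The 8 are 38.1%, where 4.81% of all genes were lower. Those 8 became 4 without Th1-1 replicate 3 or Th17-1 replicate 1 and 5 without Th17-1 replicate 2. The list was chosen with results of these libraries known, so its direction is not independent evidence. Trp53 itself, at 79.5, 76.1 and 85.2 FPKM on average in Th1-1, Th17-1 and Th17-17, did not pass (-0.10, adjusted p = 0.382, -0.16, adjusted p = 0.246 and -0.06, adjusted p = 0.722). Its mRNA level does not measure p53 protein activity.

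The largest differences in Th1-1 were in Pmaip1, which encodes the BH3-only protein NOXA, the kinase gene Plk2, and Phlda3, an AKT antagonist. Pmaip1 stood at 54.2, 34.3 and 60.7 FPKM in Th1-1, at 21.4, 19.4 and 32.95 in Th17-1 and at 10.3, 10.5 and 11.1 in Th17-17. Th1-1 was above and Th17-17 below all Th17-1 libraries, with differences of 2.08 ± 0.23 (SE), adjusted p = 0.000314 in Th1-1 and 1.10 ± 0.23 (SE), adjusted p = 0.0137 in Th17-1 against Th17-17 by limma. Plk2 stood at 8.85, 7.78 and 9.37 FPKM in Th1-1, at 5.52, 4.15 and 5.47 in Th17-1 and at 1.44, 1.25 and 1.39 in Th17-17. The 3 groups again did not overlap (2.03 ± 0.12 (SE), adjusted p = 1.35e-05 in Th1-1, 1.35 ± 0.12 (SE), adjusted p = 0.000259 in Th17-1). Phlda3 stood at 43.4, 44.2 and 39.6 FPKM in Th1-1, at 24.8, 22.3 and 24.8 in Th17-1 and at 13.1, 12.8 and 14.7 in Th17-17. Its differences were 1.58 ± 0.09 (SE), adjusted p = 1.14e-05 in Th1-1 and 0.78 ± 0.09 (SE), adjusted p = 0.000945 in Th17-1. Against Th1-1, Th17-1 was lower in all 3: -0.98, adjusted p = 0.0308 for Pmaip1, -0.68, adjusted p = 0.0111 for Plk2 and -0.80, adjusted p = 0.00176 for Phlda3.

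Fas, the death receptor, took another order. Fas stood at 25.8, 15.3 and 26.6 FPKM in Th1-1, at 29.5, 27.8 and 34.4 in Th17-1 and at 10.4, 10.5 and 8.57 in Th17-17. Th17-1 was above both other groups in every library, it had the largest difference of the list in Th17-1 against Th17-17 (1.55 ± 0.20 (SE), adjusted p = 0.00132 by limma), and against Th1-1 it did not pass (0.46, adjusted p = 0.176). The order of Th1-1, Th17-1 and Th17-17 seen in Cdkn1a was thus shared by Pmaip1, Plk2 and Phlda3, and also by Ccng1, which encodes cyclin G1. Ccng1 stood at 258, 279.8 and 261 FPKM in Th1-1, at 160.3, 159 and 176 in Th17-1 and at 104, 97.6 and 125 in Th17-17. In each of these the groups did not overlap. In Fas the order was another, and in Cdkn2a the means had this order but Th1-1 and Th17-1 overlapped.

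**Figure D4:**
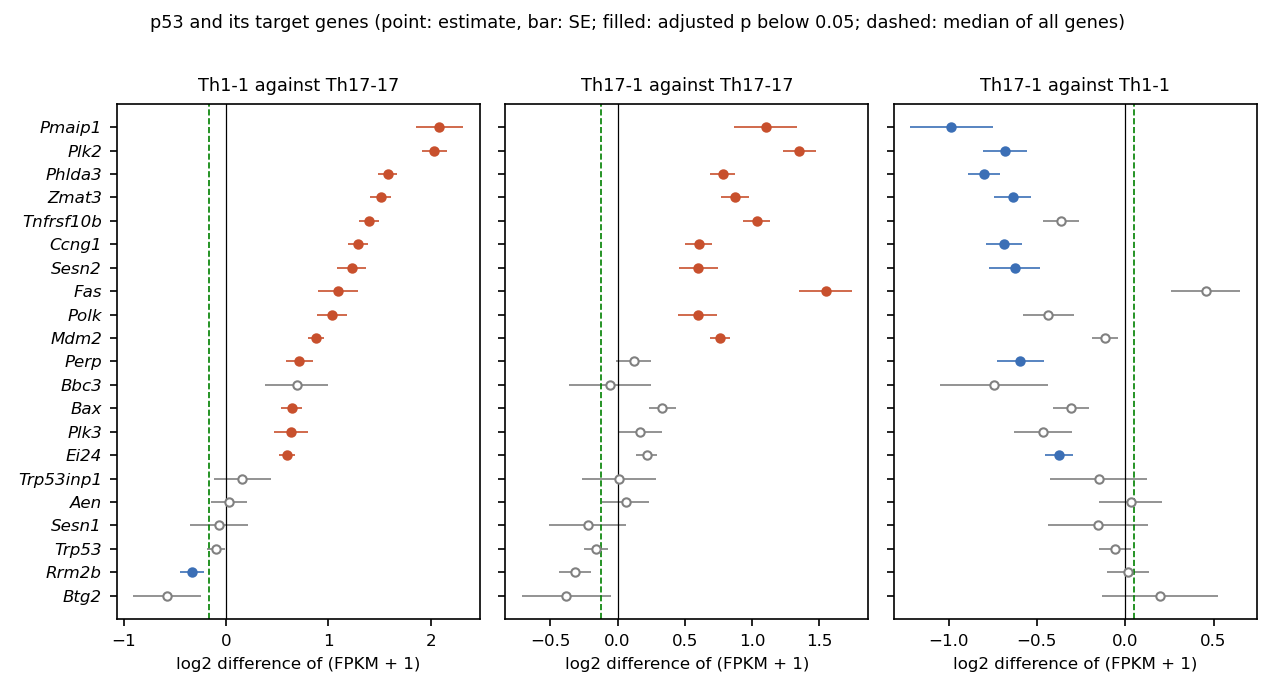
Log2 difference of (FPKM + 1) of the 21 tested genes of the p53 list in the 3 comparisons (panels with differing horizontal scales), ordered by Th1-1 against Th17-17. Points are limma estimates, bars their SE, filled red where called higher, filled blue where called lower and open grey where not called, and the dashed line is the median of all genes. In Th1-1 against Th17-17, 14 genes are red, in Th17-1 against Th17-17 10 are, and in Th17-1 against Th1-1 8 are blue.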

How the data were processed

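Messenger RNA was sequenced from total RNA of 9 samples, with group and replicate number read from each title. FPKM values for 22017 gene symbols were deposited by the authors. Per the submitters' processing notes, HISAT2, DESeq2 and the mm10 build were used, while versions, gene models and multiple mapping are not given in the sources used. FPKM depends on library composition, holds no read counts and leaves depth unknown, so no counting interval is given. No pair of columns was identical.

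Values were taken as log2(FPKM + 1), which understates differences of low genes. The 10538 genes that reached 1 FPKM in 3 or more libraries entered limma (version 3.58.1, R 4.3.3) with a mean-variance trend, all 9 libraries in 1 fit with 6 residual degrees of freedom, two-sided tests, Benjamini-Hochberg adjustment over all genes and a threshold of 0.05. The fit was tested on simulated data. Figures used matplotlib 3.10.9 and tables pandas 2.3.3 under Python 3.11.15. Gene positions are from GENCODE on GRCm38, the same assembly as mm10, and promoter windows from RefSeq on GRCm38.p6.

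The 55 genes, the pathway lists and the p53 list were chosen with earlier results of these data known. Every gene of the 55 is accounted for. In detail are those called in at least 1 comparison, the D cyclins and the CDK inhibitors, and from each pathway list up to 3 called genes per direction and comparison with the largest difference. Gtse1, Kif22 and Fas fall under that rule, and Racgap1 values by library, Mcm6 and the promoter windows shown were added after values were seen. The alternatives changed the pseudocount (0.1 or 5), the filter (none or 5 FPKM), the scaling (equal sums, median ratio or quantile), the weights, the moderation, the threshold (0.01) and the libraries fitted (2 groups, or each library left out), or added a replicate block. Omitting replicate 3 of all groups, and a covariate of Cd8a and Cd8b1, were chosen after seeing the data.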

Additional observations from a re-analysis of the deposited data

How the results depend on the processing

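The direction of no called gene reversed in 23 alternative settings. Of 30 calls among the 54 genes, 9 held in every setting: Pcna, Ccnd3, Cdkn1a, Cdkn2a, Mki67, Bub1b and Kif23 in Th1-1 against Th17-17, and Cdkn1a and Cdkn2a in Th17-1 against Th17-17. Of 3726 values under alternatives, 116 were no longer called, 86 were newly called and 3524 kept their side of the threshold. The count of 16 genes lower in Th1-1 than in Th17-17 became 7 with median-ratio scaling, 32 with array weights, 5 at a threshold of 0.01 and 7 without replicate 3 of every group, and ranged from 10 to 24 when each library was left out (24 without Th1-1 replicate 2), while the 5 higher stayed at 5. The lower count was 10 without Th1-1 replicate 3 or Th17-17 replicate 1. Of all genes, 28.9% were lower in the main fit. That share was 16.7% with median-ratio scaling, 46.3% with array weights, 15.0% at 0.01 and 18.7% without replicate 3 of every group. With a library left out it was 18.6% to 35.7%. In Th17-1 against Th17-17 the 3 lower became 0 with median-ratio scaling, 9 with array weights, 0 at 0.01 and 0 without replicate 3 of every group (0 to 4 with a library left out), and the 3 higher became 6 with array weights (2 to 4). Of all genes, 9.49% were lower in the main fit. The share became 4.75%, 28.7%, 3.00% and 5.09% in these 4 settings, in the order given. Higher were 6.43% of all genes in the main fit and 15.0% with array weights. In Th17-1 against Th1-1 the 1 higher became 0 without a filter, 0 with 2 groups fitted, 26 with array weights, 0 at 0.01 and 3 with the Cd8 covariate (0 to 2), and the 2 lower became 0 at 0.01 and 1 without replicate 3 of every group (1 to 2). Of all genes, 5.67% were higher in the main fit. In the same order the share became 3.35%, 3.79%, 32.4%, 1.80% and 6.82%. Lower were 4.81% of all genes, then 1.11% at 0.01 and 2.98% without replicate 3 of every group. Counts at a threshold of 0.01 fall by construction; for the others the cause was not tested. Of all genes called, the share higher was 32.7% in Th1-1 and 40.4% in Th17-1 against Th17-17, and became 53.8% and 63.0% with median-ratio and 45.6% and 54.5% with quantile scaling.

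Replicate numbers are shared by the groups, and the labels do not say what a number marks. Same-numbered libraries correlated in their deviations at -0.18 to 0.33, -0.01 to 0.15 and -0.18 to 0.66 in the 3 comparisons. Not every library correlated best with its own number, so the numbers were not taken as pairs. Between Th17-1 and Th1-1 the values were -0.18, 0.54 and 0.66 for numbers 1, 2 and 3. Cd8a and Cd8b1 also rose from replicate 1 to 2 to 3 in every group. Whether same-numbered libraries share an origin was not tested. With the replicate block, the 3 genes lower in Th17-1 than in Th17-17 became 1 (Kif23, with Mki67 and Bub1b lost), and the 16 lower in Th1-1 became 15. Depth is unknown, so no limit from counting can be given.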
